A study of Homo sapiens with 24 samples.

Results

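The genes described here are a module of 37 listed genes around ATF4 and the amino acid response. They were listed by name, with no threshold on a measured value, but with earlier results of these data known. A probe set named for the gene was found for 35 of them, among 11940 genes measured in all, and SESN2 and GPT2 had none. Each gene was represented by its probe set with the highest mean over all arrays. Total RNA had been prepared from A2780 cells, a human ovarian cancer line, that carried either the empty vector pcDNA or a construct for Rab25, a small GTPase of recycling endosomes. Each genotype is represented by 1 transfected line, so Rab25 and any other difference between the 2 lines cannot be told apart. The values come from 24 Affymetrix arrays, 12 for each line, and 10 groups: serum-starved cells (4 arrays for each line) and cells treated with EGF at 10 ng/ml, IGF at 10 ng/ml, TGF beta at 5 ng/ml or fetal bovine serum (FBS) at 5% (2 arrays for each line and treatment). Every group was split evenly between experiment 1 and experiment 2, and all cells had been kept in serum-free conditions for 8 h before any addition. According to the protocol, treated cells were exposed for 8 h in the first experiment and for 24 h in the other, while the sample names state 24 h throughout, so exposure time and experiment cannot be told apart here. The names give starved cells 8 h of starvation in both experiments, so treatment and added time in culture cannot be told apart either. The labels do not say that arrays of a group came from separate cultures, and p-values then measure only the spread between these arrays.

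ATF4 is a transcription factor whose protein is made mainly by translational control: when a kinase phosphorylates the initiation factor eIF2, general translation drops while the ATF4 reading frame is translated. The kinase GCN2 senses uncharged tRNA when amino acids run short and PERK senses stress of the endoplasmic reticulum, and growth factor signalling through mTORC1 also raises ATF4 protein. ATF4, often paired with a C/EBP factor, then switches on amino acid transporters, enzymes that make serine, glycine, asparagine and cysteine, tRNA charging enzymes, and inhibitors that end the response. Much of the control of ATF4 itself therefore lies in its protein, which arrays do not measure.

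The element to which ATF4 and C/EBP factors bind together is shown for the 6 members in which it was found upstream of a transcript start, because most of these genes are among those that moved most below. RefSeq promoters (build GRCh38.p14, 250 bases before to 50 bases after each start) were searched on both strands for TGATGNAA, where N is any base. It was found in 3.62% of 35116 promoters and in 3.45% of the 9593 genes of the array with a promoter, against 8 of the 29 members with one (27.6%). The stricter form TGATGCAA was found in 0.866% of promoters, 0.949% of array genes and 4 of 29 members (13.8%). The members were listed by name around ATF4 and not drawn at random, so these shares describe the list only. In these windows of 30 bases, printed 5′ to 3′ on the strand of the gene, the capitals mark the element; SLC1A4 and CHAC1 hold it on the opposite strand.
ASNS, chr7:97872458-97872487, minus strand: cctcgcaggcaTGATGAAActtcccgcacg
ATF3, chr1:212565205-212565234, plus strand: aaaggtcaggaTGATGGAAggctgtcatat
CHAC1, chr15:40953251-40953280, plus strand: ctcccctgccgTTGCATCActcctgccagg
CEBPG, chr19:33374060-33374089, plus strand: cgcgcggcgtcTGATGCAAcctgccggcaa
SLC1A5, chr19:46784893-46784922, minus strand: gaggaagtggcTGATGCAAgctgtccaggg
SLC1A4, chr2:64989381-64989410, plus strand: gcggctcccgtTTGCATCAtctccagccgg
The first base of the element lies at -68 from the transcript start in ASNS, where it is the nutrient-sensing element of that promoter, at -191 in ATF3, -209 in CHAC1, -42 in CEBPG, -97 in SLC1A5 and -7 in SLC1A4. The windows of ATF3 and CHAC1 lie upstream of the whole annotated gene, and the other 4 lie within the span of the gene, which has transcripts that start further upstream. SLC3A2 and SLC7A1 hold the element downstream of the start, at 38 and 8. A match is a run of letters and not evidence of binding, and no binding was measured.

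Of the 4 treatments, serum gave the most calls among the members. With FBS, 29 of the 35 members fell and 1 rose against starved cells over both lines (limma, adjusted p under 0.05 over 11940 genes), where 10.8% of all genes fell and 6.43% rose. The median log2 change of the members was -0.86, that of all genes -0.03. The 8 largest falls among all 11940 genes were 8 of the members: SLC7A11, ATF3, ASNS, CHAC1, TRIB3, DDIT3, DDIT4 and STC2. Of the 29 that fell, 27 had the same sign in all 4 combinations of line and experiment; the exceptions were XPOT and NUPR1, higher in 1 of 4 each.

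**Figure D1:**
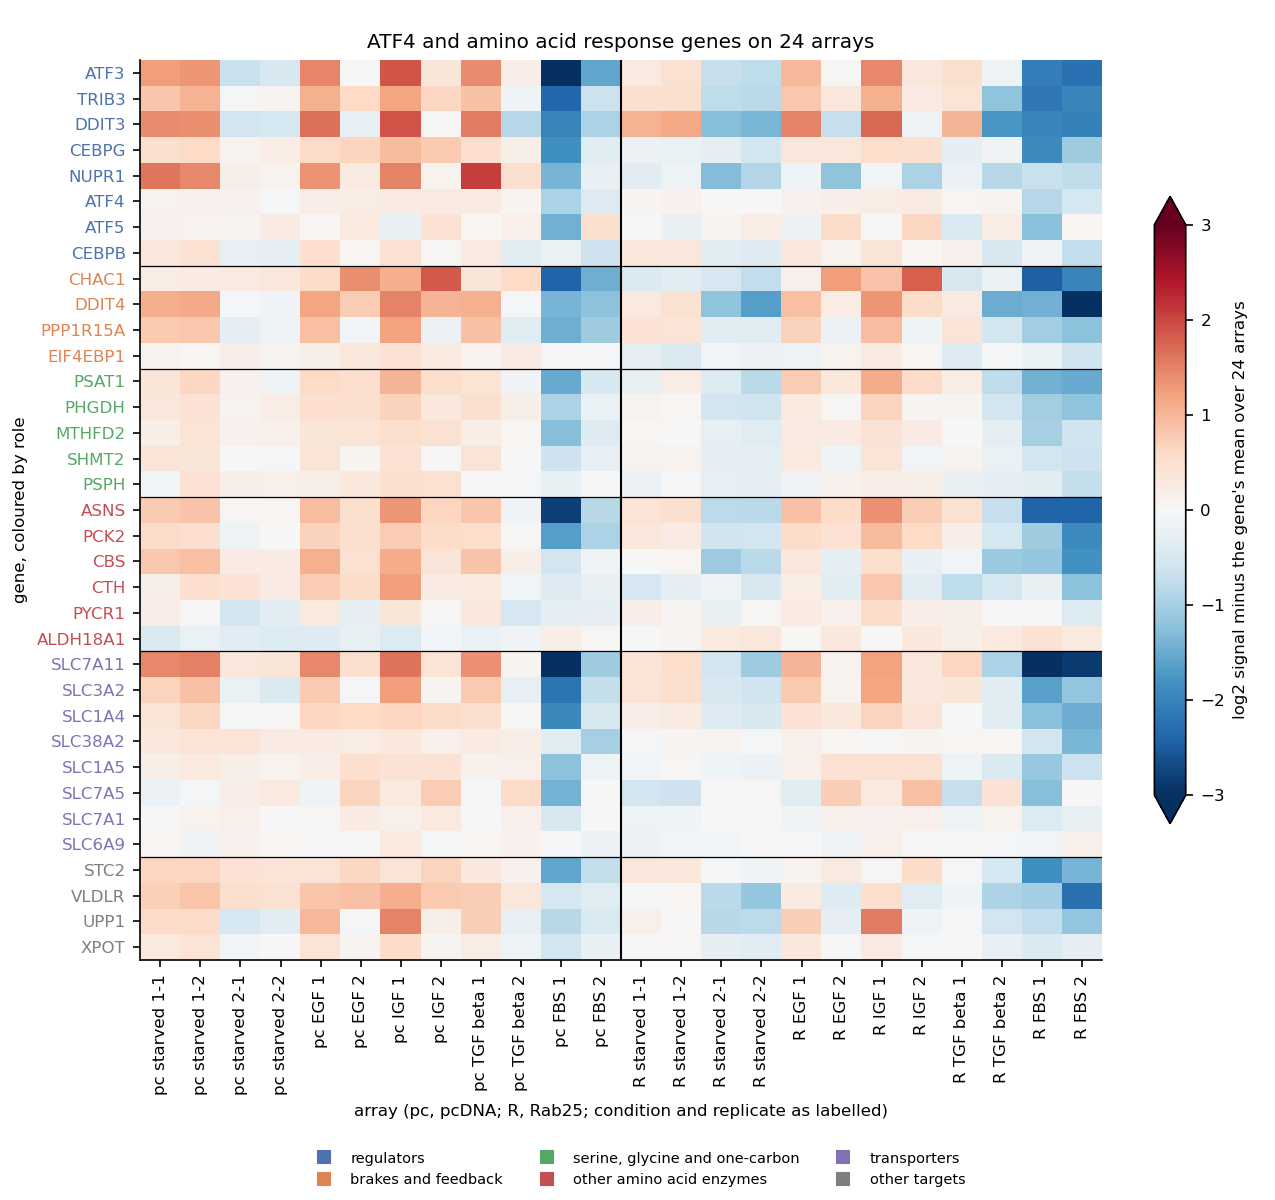
Log2 signal of the 35 measured members (rows, grouped by role) on the 24 arrays (columns), each gene centred on its mean over all arrays; red is above and blue below that mean, and the colour scale ends at 3 in either direction. The 4 FBS columns are blue for most genes, 28 of the 35 members were lower on average in starved cells of experiment 2 than of experiment 1, and ALDH18A1 is redder in the Rab25 columns.

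Among the regulators, 7 of 8 fell with FBS. ATF4 itself (chr22:39520559-39522686) read 14.09, 14.10, 14.11 and 13.93 in starved pcDNA cells and 14.07, 14.11, 14.01 and 13.97 in starved Rab25 cells, and 13.04 and 13.59 (pcDNA) and 13.13 and 13.45 (Rab25) with FBS. All 4 FBS arrays lay below all 8 starved arrays, and the log2 change was -0.75 (SE 0.08, limma adjusted p = 2.5e-05), a 1.68-fold fall of its mRNA. ATF3, an ATF4-induced repressor and stress factor, read from 9.56 to 11.65 in starved cells and 7.03, 8.76, 8.24 and 8.09 with FBS, again with no overlap (-2.38, SE 0.35, limma adjusted p = 0.000302). TRIB3, a pseudokinase that inhibits ATF4, read 10.29 to 12.14 in starved cells, and 8.72, 10.44, 8.95 and 9.10 with FBS (-1.95, SE 0.31, limma adjusted p = 0.000611); 1 of its FBS arrays, pcDNA replicate 2, lay within the starved range. DDIT3 (CHOP), a C/EBP family factor of the stress response, read 9.56 to 12.36 in starved cells and 8.95, 9.99, 8.97 and 8.92 with FBS (-1.89, SE 0.39, limma adjusted p = 0.00373). Its FBS array at 9.99, pcDNA replicate 2, also lay within the starved range. CEBPG, the C/EBP partner of ATF4 in the amino acid response, changed by -1.32 and CEBPB by -0.45. The calls for DDIT3 and CEBPB were lost without the experiment as a block. NUPR1, a small stress-induced chromatin protein, changed by -0.85 (SE 0.27, adjusted p = 0.0421), which rested on pcDNA cells of experiment 1: its changes were -2.93 there and -0.36, -0.43 and 0.33 in the other 3 combinations, and its call was lost without any of 13 arrays. ATF5, a close relative of ATF4, did not pass the test (-0.61, adjusted p = 0.0522).

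The genes that damp the response or feed back on it fell in 3 of 4 cases. CHAC1, an enzyme that degrades glutathione, lies on chr15:40953471-40956512 and read 9.25, 9.28, 9.29 and 9.38 in starved pcDNA cells and 8.60, 8.69, 8.54 and 8.30 in starved Rab25 cells. With FBS it read 6.64 and 7.57 in pcDNA and 6.58 and 7.06 in Rab25 cells, all below every other array of the study, and the change was -1.95 (SE 0.17, limma adjusted p = 6.78e-06). DDIT4 (REDD1), an inhibitor of mTORC1, changed by -1.80 (SE 0.23, limma adjusted p = 0.000126), from 10.01 to 12.79 in starved cells to 10.26, 10.43, 10.21 and 8.51 with FBS. Of the starved Rab25 arrays of experiment 2, that at 10.01 overlapped the FBS arrays and that at 10.46 lay just above them. PPP1R15A (GADD34), which directs the phosphatase that reverses eIF2 phosphorylation, changed by -1.37 with no overlap between its starved and FBS arrays. EIF4EBP1, a repressor of cap-dependent translation, changed by -0.16 and did not pass (adjusted p = 0.223).

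All 5 enzymes of serine, glycine and one-carbon metabolism fell with FBS. The log2 change was -1.21 for PSAT1 and -0.86 for PHGDH, both in the pathway from glycolysis to serine, -0.31 for PSPH, which completes it, -0.86 for MTHFD2 and -0.56 for SHMT2, the mitochondrial enzymes that use serine and its one-carbon unit. The call for PSPH was lost without pcDNA FBS replicate 1, Rab25 FBS replicate 2 or Rab25 starved replicate 1-2.

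Of 6 other enzymes of amino acid metabolism, 3 fell and 1 rose. ASNS, which makes asparagine and carries the element printed above, read 12.52, 12.60, 11.78 and 11.79 in starved pcDNA cells and 12.15, 12.21, 10.95 and 10.93 in starved Rab25 cells. With FBS it read 8.93 and 10.90 in pcDNA and 9.34 and 9.32 in Rab25 cells, with no overlap, and the change was -2.24 (SE 0.31, limma adjusted p = 0.000191), a 4.74-fold fall. PCK2, the mitochondrial PEP carboxykinase, changed by -1.42 and CBS, the first enzyme of transsulfuration, by -0.95. The call for CBS was lost without the experiment as a block. CTH, the enzyme that follows CBS, changed by -0.51 (adjusted p = 0.0711) and PYCR1, of proline synthesis, by -0.17 (adjusted p = 0.228), neither of which passed. ALDH18A1, which starts proline synthesis from glutamate, was the member that rose, by 0.32 (SE 0.08, limma adjusted p = 0.0118); its FBS arrays read 10.69, 10.54, 10.94 and 10.80 and its starved arrays 10.06 to 10.86, so the groups overlapped, and the call was lost without pcDNA FBS replicate 1 or Rab25 FBS replicate 1.

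Of 8 amino acid transporters, 7 fell. SLC7A11, the cystine importer xCT (chr4:138164097-138242349), read 13.41, 13.49, 12.33 and 12.33 in starved pcDNA cells and 12.40, 12.51, 11.40 and 10.92 in starved Rab25 cells. With FBS it read 8.73 and 10.91 in pcDNA and 8.36 and 9.11 in Rab25 cells. No FBS array reached the lowest starved array, Rab25 replicate 2-2, although pcDNA FBS replicate 2 lay only just below it. The change was -3.07 (SE 0.39, limma adjusted p = 0.000108), an 8.4-fold fall, and its other probe sets gave -3.12 and, for the dimmest, -1.45. SLC3A2, the heavy chain that pairs with SLC7A11 and SLC7A5 at the membrane, changed by -1.52, and SLC1A4, a carrier of alanine, serine and cysteine, by -1.37, although the dimmest of its 4 probe sets gave -0.18. The glutamine carriers SLC38A2 and SLC1A5 changed by -1.01 and -0.83, and the leucine carrier SLC7A5 by -0.57. SLC7A1, which carries arginine and lysine, changed by -0.27; its 7 probe sets ranged from -0.55 to 0.07, and the call was lost with their median or without pcDNA FBS replicate 1. SLC6A9, a glycine carrier, read between 5.01 and 5.49 on every array, among the dimmest 6.73% of genes, and can hardly show a change. The call for SLC7A5 was lost without pcDNA FBS replicate 1 or Rab25 FBS replicate 1.

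The 4 remaining targets all fell. STC2, a secreted glycoprotein induced by ATF4, read 12.51 to 12.76 in starved pcDNA and 11.99 to 12.46 in starved Rab25 cells, and 10.56, 11.40, 10.26 and 10.71 with FBS, with no overlap (-1.71, SE 0.15, limma adjusted p = 9.62e-06). The change was -1.10 for the lipoprotein receptor VLDLR, -0.66 for UPP1, which breaks down uridine, and -0.38 for XPOT, which exports tRNA from the nucleus; the calls for UPP1 and XPOT were lost without pcDNA FBS replicate 1 or Rab25 FBS replicate 1. Counted without any model, all 4 FBS arrays lay below all 8 starved arrays for 12 of the 35 members, against 1.79% of all genes: ATF4, ATF3, CHAC1, ASNS, MTHFD2, SLC7A11, SLC3A2, SLC38A2, SLC1A4, STC2, PCK2 and PPP1R15A.

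**Figure D2:**
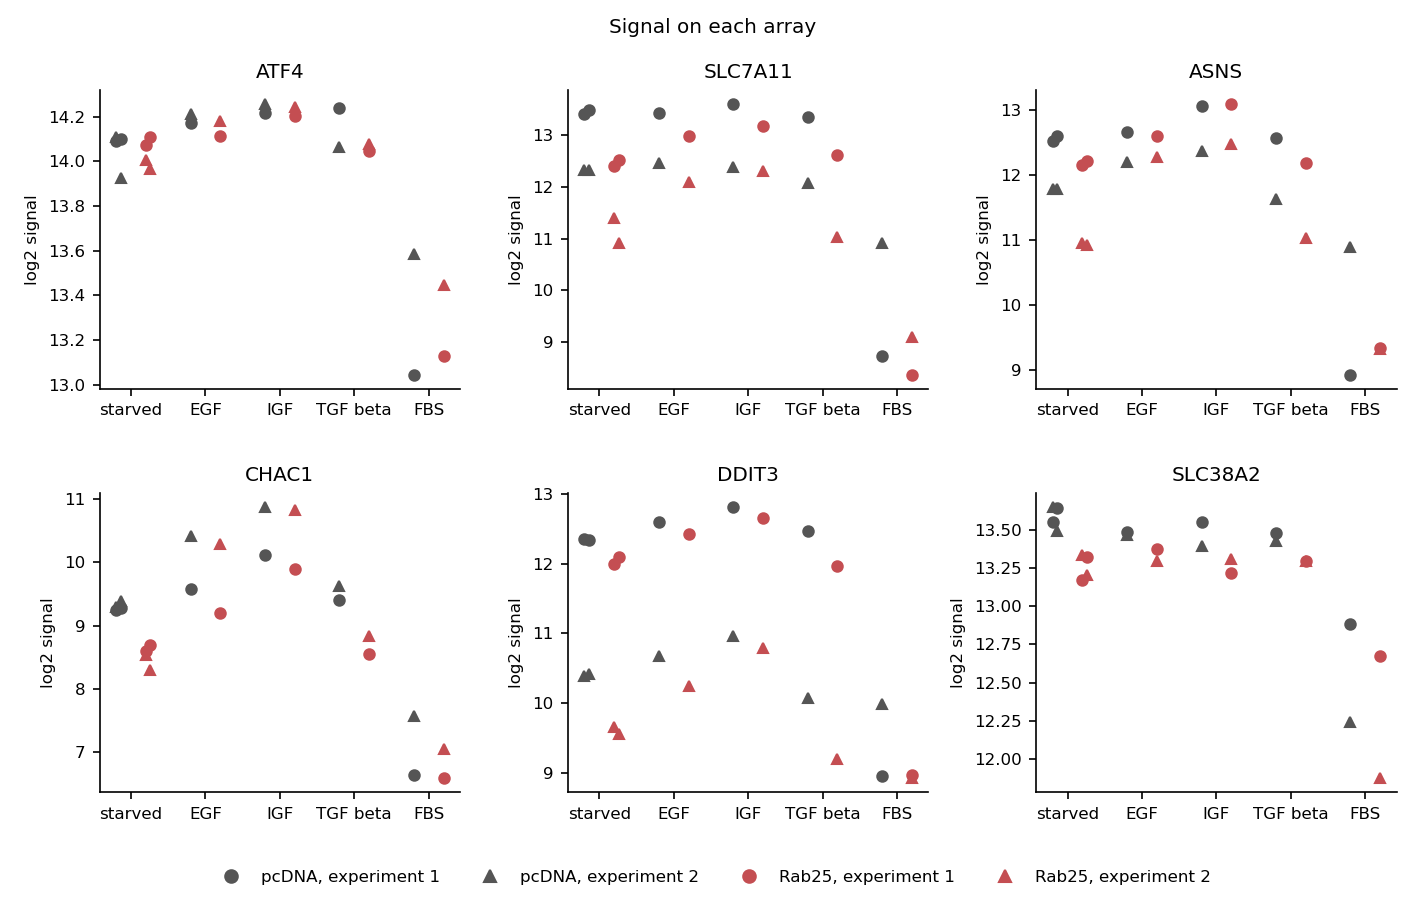
Log2 signal of 6 members on every array (y axis) by condition (x axis); grey is pcDNA and red Rab25, circles are experiment 1 and triangles experiment 2. The FBS points are the lowest of each panel in most cases, CHAC1 is highest with IGF in experiment 2 (10.88 and 10.83), and DDIT3 of starved cells is lower in experiment 2.

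The fall with serum was seen in both lines. The Rab25 values rest on 2 FBS arrays that stand apart in markers of other cell types, as given below. In pcDNA cells alone 27 members fell and 1 rose, where 4.44% of all genes fell and 2.31% rose. In Rab25 cells alone 23 fell and none rose, where 5.08% of genes fell and 2.64% rose; 26 members had an unadjusted p under 0.05 there. The lists share 23 members, all falls, where at most 4.44% of all genes can have fallen in both lines. The difference between the lines in the FBS response passed for 0 of 35 members (limma; 1 had an unadjusted p under 0.05), where 25 genes (0.209%) passed in all, and its median was 0.07. The member with the lowest p was NUPR1 at 1.60 (SE 0.55, adjusted p = 0.265), and 3 members passed without pcDNA FBS replicate 2. With 2 arrays a group these counts rest on few libraries: without the experiment as a block, 8 members were called in pcDNA and 6 in Rab25 cells, and without pcDNA FBS replicate 1 alone 3 were called in pcDNA cells, and without Rab25 FBS replicate 1 alone 10 in Rab25 cells.

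The 2 Rab25 FBS arrays stand apart from the other 22 in markers of other cell types. The mean log2 signal of the fibroblast markers was 8.93 and 10.09 on them and 6.80 to 7.63 on the others, with 4 of 8 markers higher on both than on any other array. Macrophage markers read 6.50 and 6.79 against 5.76 to 5.93 (7 of 9 higher), breast epithelium markers 6.48 and 6.71 against 5.43 to 5.63 (2 of 6), and adipocyte markers 6.06 and 6.87 against 5.63 to 5.98 (1 of 6). The epithelial and Mullerian list read 7.87 and 8.48 against 7.41 to 7.85 (1 of 11). Lymphocyte (5.73 and 5.84) and endothelial markers (6.61 and 6.77) lay within the range of the other 22 arrays. The pcDNA FBS arrays lay within the range of the others for the fibroblast list, at 7.10 and 7.17. With both Rab25 FBS arrays left out, so that pcDNA cells alone carried the comparison, 27 members fell and 1 rose. A 3′ over 5′ log2 difference for the actin control probes, a sign of RNA quality, was 0.63 to 0.74 on the FBS arrays and 0.68 to 1.17 on the starved arrays; its part in the result was not tested. Of the epithelial markers, KRT8 (12.49 to 12.95), KRT18 (13.47 to 14.22) and PAX8 (11.18 to 12.35) were bright on every array, whereas MUC16 (4.82 to 5.16) and CDH1 (5.21 to 5.76) were dim on every array. KRT19 read 5.54 and 9.95 on the Rab25 FBS arrays against 4.90 to 5.41 on the other 22, and EPCAM 5.12 and 8.49 against 4.94 to 5.29. The other 4 markers of this list did not lie above the other arrays on both Rab25 FBS arrays; WT1 read 6.08 to 8.35, MSLN 5.92 to 8.55, PAX2 5.31 to 5.79 and EMX2 4.89 to 5.13. RAB25 read 4.90 to 5.60 in pcDNA cells and 8.18 to 9.08 in Rab25 cells, as the labels have it. The falls counted in Rab25 cells and the line difference in the FBS response use the 2 Rab25 FBS arrays. The part of the marker signal in those values was not tested. In these bulk samples fewer cells of a type and less RNA per cell cannot be told apart.

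IGF moved part of the module the other way. With IGF 6 of 35 members rose and none fell, where 1.17% of all genes rose and 1.53% fell, and the members' median was 0.41 against 0.00 for all genes. CHAC1 had the largest rise of all 11940 genes and DDIT4 the next, and 10 members were among the 25 largest estimates. CHAC1 read 10.12 and 10.88 in pcDNA and 9.90 and 10.83 in Rab25 cells with IGF, against 8.30 to 9.38 in the 8 starved arrays, with no overlap (1.51, SE 0.17, limma adjusted p = 0.000657), a 2.86-fold rise. DDIT4 read 13.15, 12.68, 12.97 and 12.20 with IGF and 10.01 to 12.79 in starved cells, which overlap (1.09, SE 0.23, limma adjusted p = 0.0211); it lay above the starved arrays of its own line and experiment in all 4 combinations. UPP1 rose by 0.92, PSAT1 by 0.83, PCK2 by 0.68 and SLC7A5 by 0.67. The other members had smaller or more variable estimates, such as ASNS at 0.89 (adjusted p = 0.148), ATF3 at 0.92 (adjusted p = 0.184) and ATF4 at 0.18 (adjusted p = 0.277). Counted without a model, all 4 IGF arrays lay above all 8 starved arrays for ATF4, CHAC1 and SLC1A5, where 0.662% of all genes did so. All 6 genes that rose with IGF had fallen with FBS; both comparisons share the starved arrays, so these are not independent results.

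**Figure D3:**
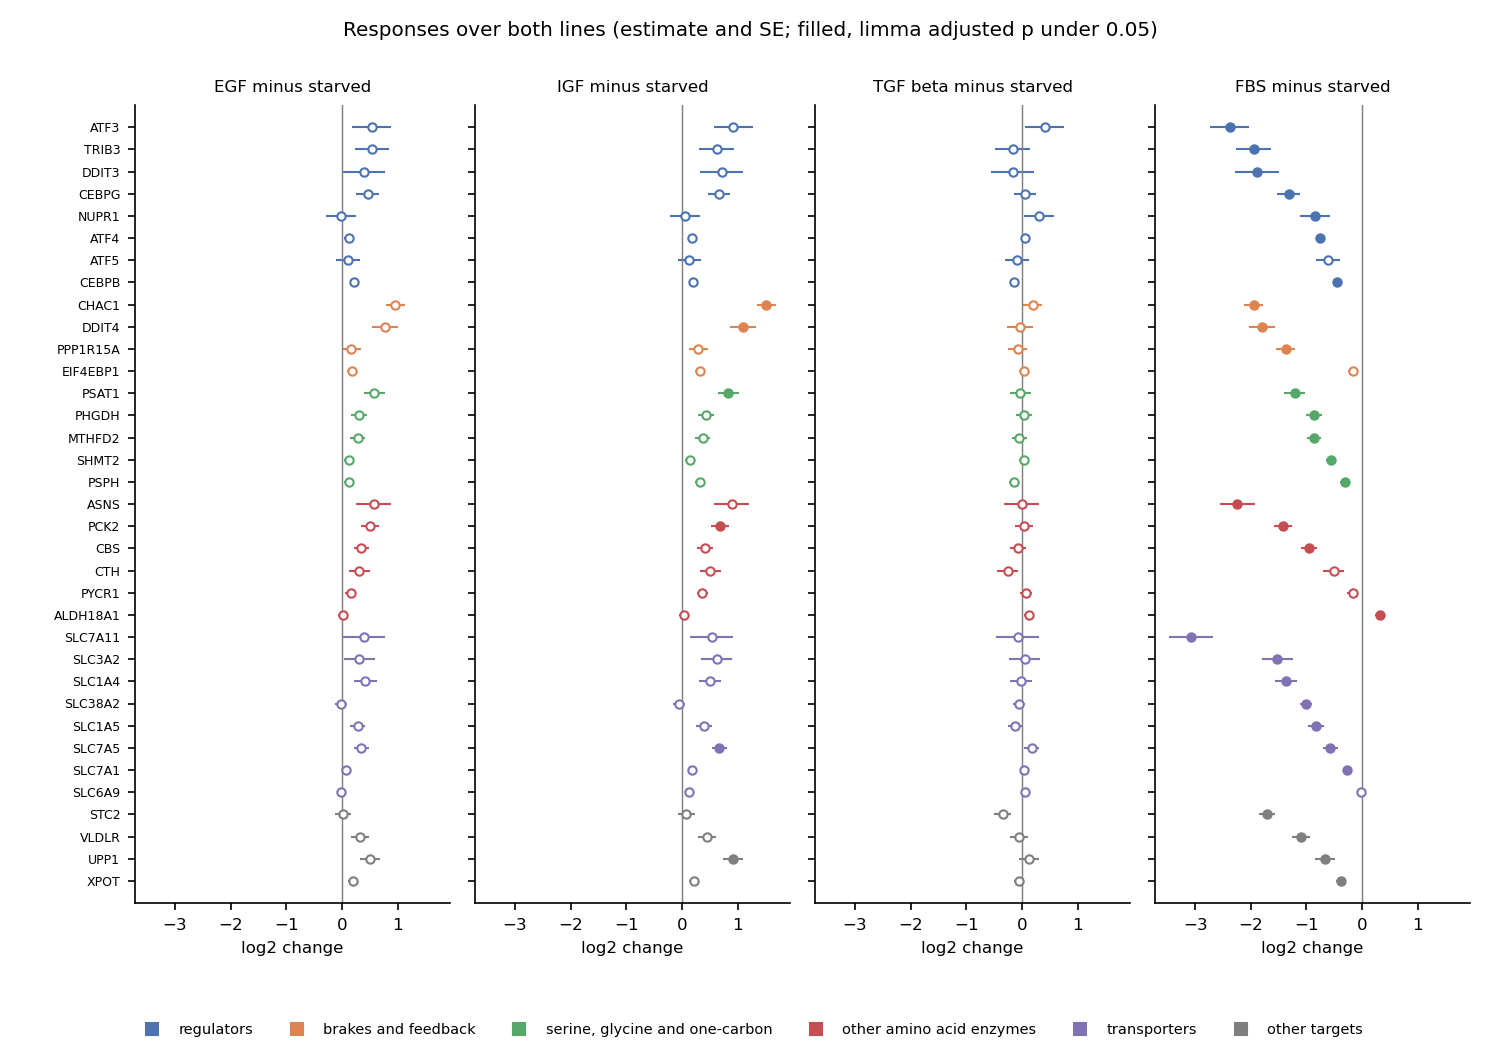
Log2 change against starved cells over both lines (x axis, with standard error) for each member (y axis, coloured by role), in panels for EGF, IGF, TGF beta and FBS; filled points passed limma's adjusted p of 0.05. Most points lie right of 0 for IGF, where 6 are filled, close to 0 for TGF beta, and left of 0 for FBS, where 30 are filled.

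The IGF count is sensitive to which arrays and terms are used, and the count over all genes moved with it. Of all genes 323 were called in the main fit, 10 without the experiment as a block and 1298 with treatment by experiment terms. It was 1 without the experiment as a block and 1 when Rab25 IGF replicate 1 was left out. Leaving out pcDNA IGF replicate 1 gave 2, its replicate 2 gave 3, and either pcDNA FBS array gave 16. The count was 26 with treatment by experiment terms. CHAC1 passed in all 24 fits that left out 1 array. The call for DDIT4 was lost without pcDNA IGF replicate 2 or either Rab25 IGF array, those for UPP1 and SLC7A5 without pcDNA IGF replicate 1 or Rab25 IGF replicate 1, those for PSAT1 without any of 8 arrays and for PCK2 without any of 10. In Rab25 cells alone, CHAC1 (1.83, SE 0.24) and SLC7A5 (0.88, SE 0.19) rose (limma adjusted p = 0.0054 and 0.0429), where 0.377% of all genes rose and 0.394% fell; without the block neither passed. In pcDNA cells alone 0 members passed limma's test (0% of all genes). Before adjustment 6 members were at a p under 0.05, and CHAC1 was estimated at 1.20 (SE 0.24, adjusted p = 0.228). The difference between the lines in the IGF response passed for 0 members and 0% of all genes, with the members all at an adjusted p of 1 and none at an unadjusted p under 0.05; it was positive for 33 of 35, with a median of 0.28 against 0.01 for all genes, and was 0.63 for CHAC1 (SE 0.34), 0.42 for SLC7A5 (SE 0.27) and 0.61 for PSAT1 (SE 0.38). The line difference in the EGF response was positive for 31 of 35 members, with a median of 0.20. Both differences subtract the same starved arrays, where 33 of 35 members were estimated lower in Rab25 cells, so their signs are not independent of that.

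Over both experiments, with the experiment as a block, EGF and TGF beta changed no member past the threshold. With EGF 0 of 35 members and 0 of all genes passed limma's test (0%), although 11 members and 811 of all genes had an unadjusted p under 0.05, and 32 of 35 estimates were positive with a median of 0.31. The lowest p-values were those of CHAC1 (0.96, SE 0.17, adjusted p = 0.107), DDIT4 (0.77, adjusted p = 0.515) and CEBPB (0.21, adjusted p = 0.515). By size of the EGF estimate CHAC1 ranked 2 and DDIT4 5 among all 11940 genes. Of the 25 largest EGF estimates 9 were members, against 10 with IGF. CHAC1 read 9.58 and 10.42 in pcDNA and 9.20 and 10.29 in Rab25 cells with EGF. All 4 EGF arrays lay above all 8 starved arrays for ATF4, where 0.193% of all genes did so, by estimates of 0.02 to 0.19 in the 4 combinations of line and experiment. The estimate with IGF was larger than with EGF for 33 of 35 members, with a median difference of 0.12. No difference between IGF and EGF passed limma's test (0%; 1 member had an unadjusted p under 0.05), and the largest was 0.56 for CHAC1 (SE 0.20). With TGF beta 0 members passed, where 0.846% of all genes rose and 0.754% fell; 2 members had an unadjusted p under 0.05, and the median was -0.02. The lowest p-values were those of STC2 (-0.35, SE 0.15, adjusted p = 0.413), CEBPB (-0.14, adjusted p = 0.448) and ALDH18A1 (0.12, adjusted p = 0.689). Between the lines, no EGF or TGF beta response differed past the threshold (0%); 0 members had an unadjusted p under 0.05 in either.

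Most of the module was lower in starved cells of experiment 2 than in those of experiment 1. In a limma fit with treatment by experiment terms, 23 members were lower and 1, SLC7A5, was higher in experiment 2, where 16.6% of all genes were lower and 14.8% higher. DDIT3 read 12.36, 12.34, 11.99 and 12.09 on the starved arrays of experiment 1 and 10.39, 10.42, 9.66 and 9.56 on those of experiment 2, with no overlap (-2.19, SE 0.14, limma adjusted p = 5.39e-07). CEBPB differed by -0.68 (SE 0.05, limma adjusted p = 1.63e-06), PPP1R15A by -0.87 (SE 0.09) and UPP1 by -0.95 (SE 0.11). SLC7A5 differed by 0.49 (SE 0.08). ATF4 differed by -0.09 (adjusted p = 0.26), CHAC1 by -0.08 (adjusted p = 0.598) and SLC38A2 by 0.00 (adjusted p = 0.992).

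The FBS response differed between the experiments for 23 members, 22 with the larger fall in experiment 1 and 1, SLC38A2, with the larger fall in experiment 2, where 9.53% of all genes had a higher response in experiment 2 and 12.9% a lower one. In experiment 1 29 members fell and 1 rose (17.1% and 17% of all genes), with a median of -1.29. In experiment 2 22 fell and none rose (5.34% and 2.91%), with a median of -0.51. In both experiments 20 members fell, as at most 5.34% of all genes can have done. Each experiment holds 1 FBS array for each line. DDIT3 changed by -3.23 (SE 0.17) in experiment 1, and its estimate in experiment 2 was -0.55 (SE 0.17, limma adjusted p = 0.0731), a difference of 2.68 (SE 0.25, limma adjusted p = 2.53e-05). Its FBS arrays averaged 8.96 and 9.46 in the 2 experiments and its starved arrays 12.19 and 10.01, so the starved level moved more than the FBS level. SLC7A11 changed by -4.41 and -1.74, from starved means of 12.95 and 11.75 to FBS means of 8.55 and 10.01, so both levels moved. The difference was 2.01 (SE 0.23) for SLC3A2 and 1.47 (SE 0.17) for CEBPG. SLC38A2 fell by 0.64 and 1.37, from the same starved mean of 13.42 to 12.78 and 12.05. Of the 22 members with the larger fall in experiment 1, 17 were also lower in starved cells of experiment 2; both results use the same starved arrays.

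**Figure D4:**
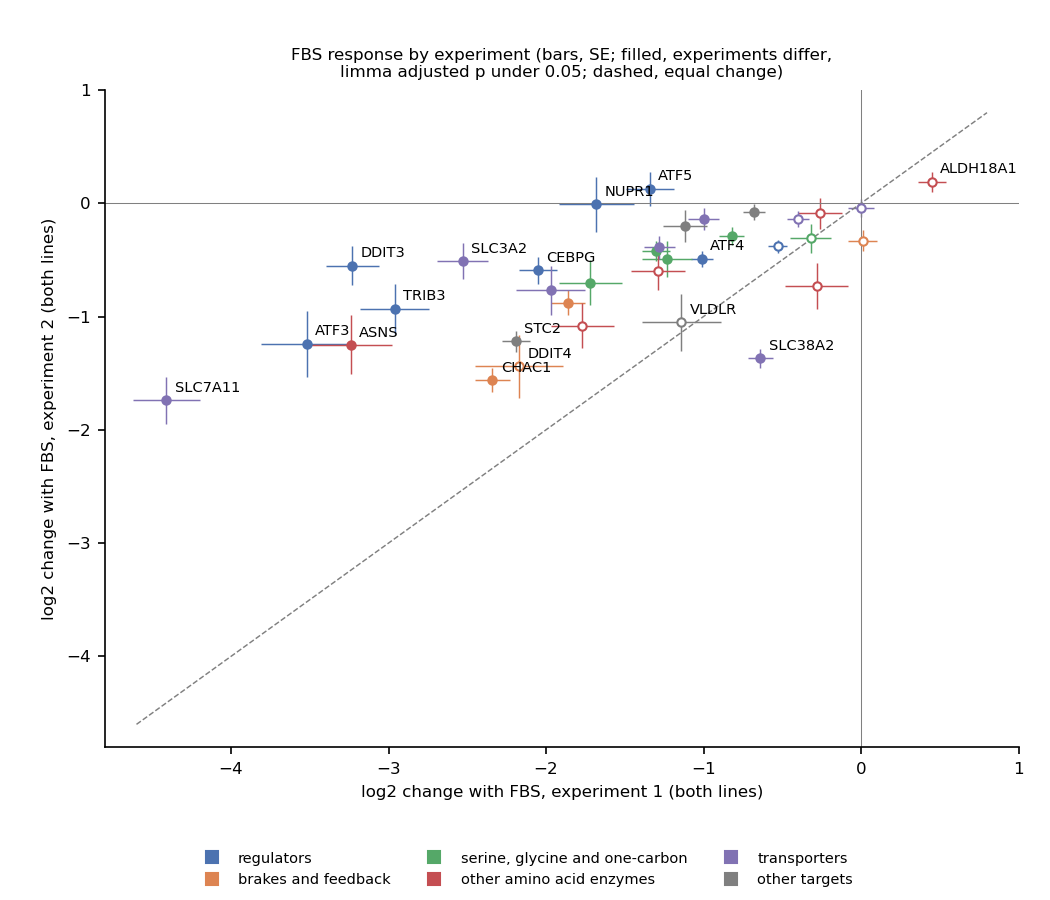
Log2 change with FBS in experiment 1 (x axis) against experiment 2 (y axis) for each member over both lines, with standard errors; filled points differ between the experiments by limma's adjusted p of 0.05 and the dashed line marks equal change. Most points lie above the line, with SLC7A11 at -4.41 and -1.74 and DDIT3 at -3.23 and -0.55, and SLC38A2 lies below it.

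With treatment by experiment terms, 5 members were called for EGF, 26 for IGF and 1 for TGF beta over both experiments. Of all genes, 106, 1298 and 498 were called in that order. No single experiment called more members than that. Within an experiment each treatment has 1 array for each line, so the counts for single experiments rest on few arrays. In the fit with treatment by experiment terms, EGF raised 0 members in experiment 1 (0.0168% of all genes; 7 members at an unadjusted p under 0.05) and 5 in experiment 2 (0.452%), namely CHAC1 (1.47, SE 0.11), CEBPG (0.63), SLC7A5 (0.56), SLC1A5 (0.48) and CEBPB (0.38). IGF raised 12 members in each experiment, where 4.18% and 1.29% of all genes rose. TGF beta changed 0 members in experiment 1 (0.611% of all genes rose and 0.678% fell; 2 members at an unadjusted p under 0.05) and lowered 1 in experiment 2, STC2 (-0.36, SE 0.09, limma adjusted p = 0.0481), where 1.25% of all genes fell and 1.74% rose.

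The difference between the experiments passed for fewer members with the growth factors than with FBS. CHAC1 had the larger EGF response in experiment 2 by 1.04 (SE 0.15, limma adjusted p = 0.0222), where 0.067% of all genes did so, and the larger IGF response by 0.92 (SE 0.15, limma adjusted p = 0.0115), where 1.08% did so. With IGF CHAC1 rose by 1.05 in experiment 1 and by 1.97 in experiment 2. STC2 with IGF was estimated at -0.27 in experiment 1 (SE 0.09, limma adjusted p = 0.0746) and rose by 0.43 in experiment 2 (SE 0.09, limma adjusted p = 0.0212), a difference of 0.70 (SE 0.13, limma adjusted p = 0.0157). The CHAC1 difference with EGF was lost without any EGF array or without Rab25 starved replicate 1-1, 1-2 or 2-1, and both IGF differences were lost without any 1 of the 4 IGF arrays. No TGF beta difference passed for a member (0 members by limma, where 0.402% of all genes passed; 2 at an unadjusted p under 0.05).

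Part of the module was lower in the Rab25 line. Over all 5 conditions 13 members were lower and 1 higher in Rab25 cells, where 15.5% of all genes were lower and 9.14% higher, and 33 of 35 estimates were negative with a median of -0.28 against -0.01 for all genes. NUPR1 read 5.40 to 8.87 in pcDNA cells and 5.49 to 6.71 in Rab25 cells (-1.20, SE 0.19, limma adjusted p = 0.000153), lower in 9 of 10 combinations of condition and experiment. VLDLR read 8.32 to 9.93 in pcDNA and 6.59 to 9.34 in Rab25 cells (-1.03, SE 0.11, limma adjusted p = 3.4e-06), lower in 10 of 10. CBS differed by -0.93 (SE 0.10, limma adjusted p = 2.49e-06), also lower in 10 of 10, and DDIT4 by -0.78 (SE 0.16, limma adjusted p = 0.0018). CTH differed by -0.61, CHAC1 by -0.45, CEBPG by -0.44, PHGDH by -0.43, STC2 by -0.39, EIF4EBP1 by -0.32, PSPH by -0.30, SLC38A2 by -0.22 and SHMT2 by -0.18. ALDH18A1 was higher in Rab25 cells in 10 of 10 (0.41, SE 0.05, limma adjusted p = 2.96e-05). ATF4 did not differ past the threshold (-0.04, SE 0.06), nor did SLC7A11 (-0.74, SE 0.27, adjusted p = 0.054).

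**Figure D5:**
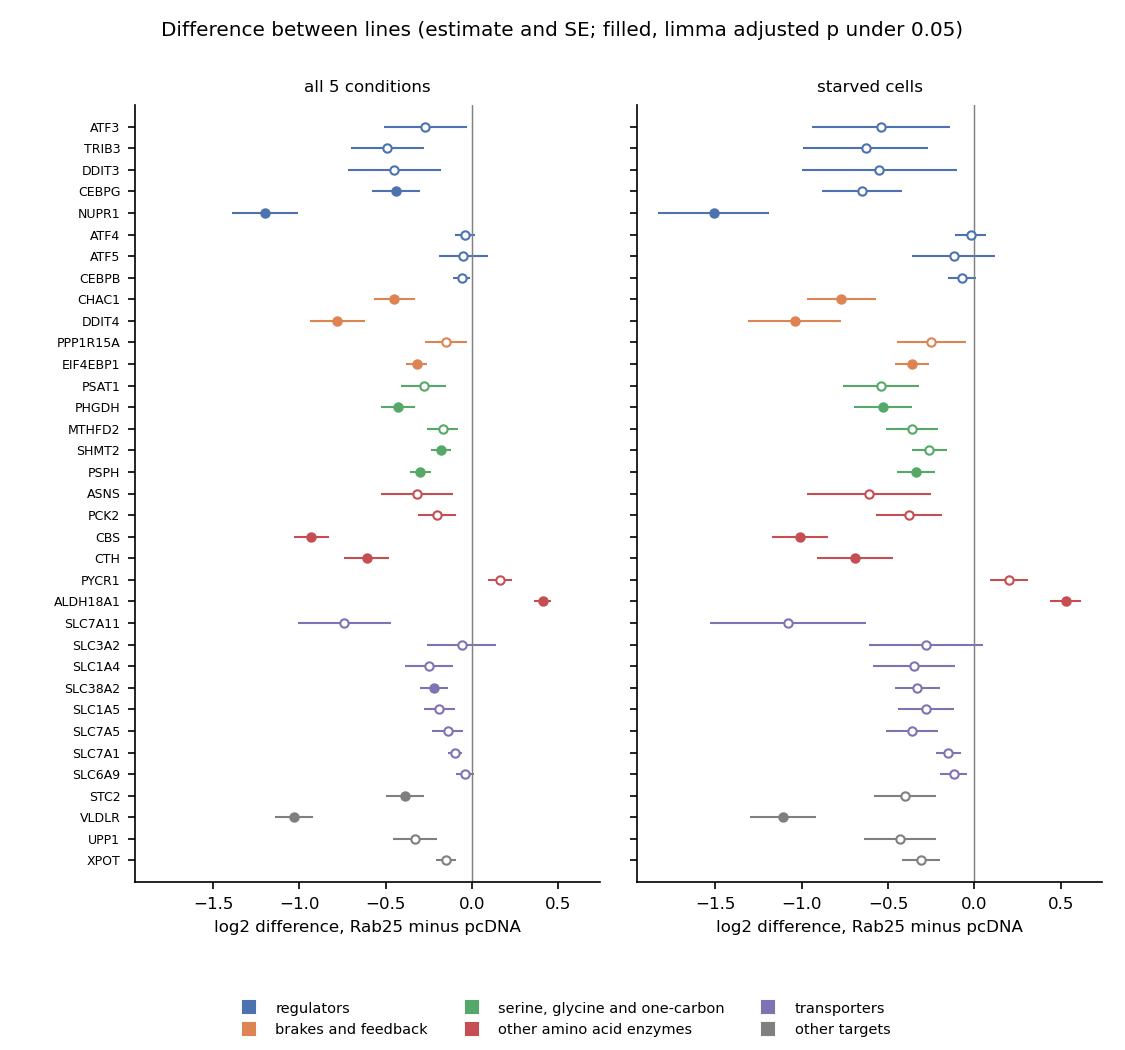
Log2 difference between Rab25 and pcDNA cells (x axis, with standard error) for each member (y axis, coloured by role) over all 5 conditions (left) and in starved cells (right); filled points passed limma's adjusted p of 0.05. On the left 14 points are filled and on the right 10, and ALDH18A1 is the filled point right of 0 in both.

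In starved cells 9 members were lower and 1 higher in the Rab25 line (9.24% and 5.56% of all genes): NUPR1 by -1.51, VLDLR by -1.11, DDIT4 by -1.04, CBS by -1.01, CHAC1 by -0.77, CTH by -0.69, PHGDH by -0.53, EIF4EBP1 by -0.36, PSPH by -0.34 and ALDH18A1 by 0.53. CHAC1 of starved cells read 9.25 to 9.38 in pcDNA and 8.30 to 8.69 in Rab25 cells, with no overlap (SE 0.20, limma adjusted p = 0.0144). CBS of starved cells read 10.59, 10.70, 10.03 and 10.03 in pcDNA and 9.79, 9.84, 8.70 and 8.98 in Rab25 cells, also with no overlap. The starved call for CTH was lost without any of 12 arrays, and that for PHGDH without any of 10. It was lost without any of 6 for PSPH, 4 for EIF4EBP1 and 2 for CHAC1, and without 1 for DDIT4. With quantile normalization those for PHGDH, PSPH and EIF4EBP1 were lost. Without the block only the calls for VLDLR and ALDH18A1 held, and the starved calls over all genes went from 1767 to 730. Of the line differences over all conditions, VLDLR was -0.66 in experiment 1 and -1.40 in experiment 2, DDIT4 -0.41 and -1.15, CBS -0.74 and -1.12, and NUPR1 -1.27 and -1.13; whether they differ between the experiments was not tested. The count in starved cells was 2 without the block, 6 without pcDNA starved replicate 1-2 or 2-1, 5 without Rab25 starved replicate 2-2, and 21 without pcDNA FBS replicate 1 or 2; the count over all conditions was 27 without pcDNA FBS replicate 1. The calls for SHMT2 (19 of 24 arrays left out in turn), SLC38A2 (14) and CEBPG (7) over all conditions were often lost, and all 3 were lost with quantile normalization. Without the block the calls for DDIT4, CHAC1, SHMT2 and SLC38A2 over all conditions were lost. That fit called 10 members and 1665 of all genes. The actin 3′ over 5′ difference averaged 0.88 in pcDNA and 0.78 in Rab25 arrays, and its part in the result was not tested.

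Outside the module, 3 lists hold further ATF4 and amino acid genes, the genes of eIF2 upstream of ATF4, and those of mTORC1 and amino acid sensing; whether they differ from the members was not tested. With FBS 20 of 28 measured further ATF4 and amino acid genes fell and none rose, where 10.8% of all genes fell and 6.43% rose, with a median of -0.43; the lowest p-values were those of the tRNA charging enzymes CARS1 (-0.59, SE 0.06) and MARS1 (-0.48, SE 0.06) and the secreted stress cytokine GDF15 (-1.35, SE 0.20). The eIF2 list holds eIF2 kinases, eIF2 and eIF2B subunits, PPP1R15B, GCN1 and IMPACT. Of its 13 measured genes 3 fell and 1 rose with FBS, at a median of 0.00: EIF2S2 by -0.22, EIF2B2 by -0.20 and the PERK gene EIF2AK3 by -0.56, and EIF2S1 by 0.21. Of 15 measured genes of mTORC1 and amino acid sensing 3 fell and none rose, namely TSC1 (-0.45), RRAGC (-0.49) and FLCN (-0.36), at a median of -0.07. With IGF, where 1.17% of all genes rose and 1.53% fell, 4 of the 28 further genes rose, MARS1 (0.33), GADD45A (0.35), NARS1 (0.24) and GOT1 (0.58), and SESN1 fell (-0.46), while 1 of 13 eIF2 genes, EIF2S1, rose (0.22) and 0 of 15 mTORC1 genes passed limma's test or had an unadjusted p under 0.05. Between the lines, where 15.5% of all genes were lower and 9.14% higher, 11 of the 28 further genes had lower levels in the Rab25 line and 1 a higher level, with BCAT1 at -0.67, VEGFA at -0.54 and GDF15 at -0.87; 2 of 13 eIF2 genes were higher and 2 lower, among them EIF2B4 at 0.44 and EIF2B5 at -0.30; and 1 of 15 mTORC1 genes was higher and 1 lower. For the eIF2 and mTORC1 lists these counts are too small to set apart from those shares. In starved cells, 16.6% of all genes were lower and 14.8% higher in experiment 2 than in experiment 1. Of the 28 further genes 21 were lower and 1 higher there, led by GDF15 (-2.14) and WARS1 (-1.56). Of the 13 eIF2 genes 2 were lower and 2 higher, near those shares, with a median of 0.08. Their lowest value was that of EIF2AK3, at -1.10.

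The members with the element in a promoter changed with FBS by a median of -1.44 (8 genes, -2.38 to -0.27) and those of the 29 without it by -0.86 (21 genes, -1.95 to 0.32). The 6 measured members with no promoter entry (SLC7A11, NUPR1, EIF4EBP1, PSPH, SHMT2 and PYCR1) are in neither group, among them SLC7A11 with the largest fall (-3.07). Among the printed windows, ASNS and ATF3, which carry the form with a free base, changed by -2.24 and -2.38, and CHAC1, CEBPG, SLC1A4 and SLC1A5, with the strict form, by -1.95, -1.32, -1.37 and -0.83. The ranges overlap, and the members were not drawn at random, so these values describe the module only.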

How the data were processed

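The values analysed were log2 expression values per probe set, as the authors deposited them for 24 arrays. Per the submitters' processing notes MAS5 and RMA were used; the order, versions and normalization are not given in the sources used here, and array medians lay between 7.02 and 7.35. The number of arrays limits the precision. Probe sets were named from GEO's platform annotation: of 22930, 524 were controls, 19415 had 1 symbol, 125 several and 2866 none, which left 11940 genes (SESN2 and GPT2 not among them), each by its probe set of highest mean. Groups came from the sample titles. The test was limma 3.58.1 (R 4.3.3; lmFit, eBayes) on 10 groups with the experiment as a block, and experiments were compared in a fit with treatment by experiment terms. P-values were adjusted over all genes by Benjamini-Hochberg, with a threshold of 0.05. The labels tie each replicate number to an experiment, so the numbers pair the arrays; deviations of the 45 pairs of groups correlated at a median of 0.658 (lowest 0.092, highest 0.858). Every member is named; full values went to up to 8 largest called rises and 8 falls per comparison, up to 4 called members of lowest p per difference between responses, and 3 of lowest p where none was called. The members and lists were chosen with earlier results of these data known. The scripts were tested on simulated data. Alternatives were no replicate block, quantile normalization, median centring, array quality weights, the median over probe sets, no genes of the lowest 40%, no Rab25 FBS arrays, treatment by experiment terms, and each array left out in turn. Promoters are RefSeq's (GRCh38.p14).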

Additional observations from a re-analysis of the deposited data

Results flagged for a closer look

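In starved pcDNA cells ATF4 on replicate 2-2 read 13.93 and stood apart from the other 3 arrays of its group; it was 1 of 70 groups examined, of which chance flags about 5%.

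The other results differ between experiment 1 and experiment 2 by limma's test of the difference (experiment 2 minus experiment 1, adjusted p under 0.05). CHAC1 differed by 1.04 in the EGF response and 0.92 in the IGF response, and STC2 by 0.70 in the IGF response.

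In the FBS response the difference among the regulators was 2.68 for DDIT3, 2.27 for ATF3, 2.03 for TRIB3, 1.67 for NUPR1, 1.47 for CEBPG, 1.47 for ATF5 and 0.52 for ATF4. Among brakes it was 0.98 for PPP1R15A and 0.78 for CHAC1. Among the enzymes it was 1.99 for ASNS, 1.02 for PSAT1, 0.88 for MTHFD2, 0.74 for PHGDH and 0.53 for SHMT2. Among the transporters it was 2.67 for SLC7A11, 2.01 for SLC3A2, 1.20 for SLC1A4, 0.90 for SLC1A5, 0.86 for SLC7A5 and -0.72 for SLC38A2. Among the other targets it was 0.97 for STC2, 0.92 for UPP1 and 0.59 for XPOT. The negative value means a larger fall in experiment 2 and the positive ones a larger fall in experiment 1. Stated exposure and experiment cannot be told apart.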

How the results depend on the processing

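No result reversed. Without the replicate block the members called were 2 for starved lines (main 10), 1 for IGF (main 6), 8 for FBS in pcDNA (main 28), 6 for FBS in Rab25 (main 23) and 0 for IGF in Rab25 (main 2); no other count of members moved by over 1.5 times. With array quality weights they were 23 for starved lines, 1 for EGF (main 0), 19 for IGF, 1 for IGF in pcDNA (main 0), 13 for FBS in pcDNA, 6 for IGF in Rab25 and 4 for FBS in Rab25. With treatment by experiment terms they were 24 for the lines over all conditions (main 14), 23 for starved lines, 5 for EGF, 26 for IGF, 1 for TGF beta (main 0), 1 for IGF minus EGF (main 0) and 2 for IGF in pcDNA. IGF in Rab25 gave 1 with median centring and 5 without the lowest 40% of genes, and the experiment difference in the IGF response gave 1 with the median of the probe sets (main 2). With each array left out in turn the counts ran from 11 to 27 (lines), 5 to 21 (starved lines), 1 to 16 (IGF), 23 to 32 (FBS, main 30), 0 to 3 (line difference in FBS), 0 to 1 and 0 to 3 (experiment difference in EGF and IGF), 3 to 30 (FBS in pcDNA), 1 to 12 (IGF in Rab25) and 10 to 25 (FBS in Rab25). A lone array left in a group is assumed to vary like the other groups. The 12 for IGF in Rab25 came without pcDNA FBS replicate 1 or 2. The cause of these moves was not tested. The FBS count of members was 20 without the block and 23 with weights. Over all genes, FBS called 2057 genes, 396 without the block, 367 with weights, 1243 without both Rab25 FBS arrays and 3358 with treatment by experiment terms; IGF called 323, and 10, 796, 515 and 1298 in that order. The lines called 2944 genes and 1665 without the block, the starved lines 1767 and 730, and TGF beta 191 and 55. The starved lines called 3273 genes with weights and 2884 with treatment by experiment terms. Of the values of single named genes under the alternatives, 2814 kept direction and side of the threshold, 188 no longer passed and 6 newly passed. Dim probe sets such as SLC6A9 limit what can be seen.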
